A study of Homo sapiens with 24 samples.

Results

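This account follows 36 genes of DNA replication in LNCaP, a cell line from human prostate cancer, after plasmid delivery of microRNAs. The members were taken by symbol from a gene list that was chosen with earlier results of these data known. Counts of members set against all genes are therefore descriptions and not independent tests. Each gene was represented by the probe set with the highest mean over 24 arrays among those annotated to that gene alone. All 36 genes had such a probe set, of 11963 genes on the array, and 35 passed the filter on dim probe sets that left 6782 genes for testing. ORC1, which encodes the largest subunit of the origin recognition complex, did not pass. The cells were nucleofected with 2.5 µg of plasmid. It carried either 1 of the microRNAs (miR-130a, miR-203, miR-205) or, as the control, a scramble sequence. From each transfection, RNA bound to AGO2 was recovered with the antibody 11A, and total RNA was taken as well. Each of the 8 groups was measured on 3 arrays that received 2 µg of RNA each, labelled as biological replicates. All groups came from the same cell line and all, scramble included, had received a plasmid by nucleofection. The labels do not say that replicates came from separate cultures, so the tests see only the spread among these arrays, which may be technical. The series asked which transcripts each microRNA brings to AGO2.

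DNA replication starts when the origin recognition complex, CDC6 and CDT1 load the MCM helicase onto chromatin, a step called licensing, which geminin blocks later in the cycle. CDC45 and the GINS complex then activate the helicase, primase and polymerases begin synthesis, and a sliding clamp, its loader and single-strand binding proteins support the moving fork. Many of these genes are known targets of E2F transcription factors and are expressed mostly in dividing cells, around the start of S phase. AGO2 is the Argonaute protein that holds a microRNA and the transcripts it pairs with, mainly through the seed at bases 2 to 8 of the microRNA.

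The mature microRNAs are shown because the transfections differ in them, with the seed in capitals (RefSeq, GRCh38.p14, 5′ to 3′). The labels name no arm, and these are the arms of that name in the RefSeq table. The first lies at chr14:104117469-104117490 and the second at chr1:209432166-209432187, both on the plus strand. Their seeds differ. miR-130a-3p is named only.
hsa-miR-203a-3p: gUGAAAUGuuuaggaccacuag
hsa-miR-205-5p: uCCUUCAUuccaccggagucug

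Values are deposited log2 expression levels. The lowest value of an array, its floor, took 3 levels, 2.344895 for miR-130a (6 arrays), 2.346843 for miR-203 (6 arrays) and 2.347327 for miR-205 with scramble (12 arrays). These levels show 3 sets of arrays that appear to have been normalized apart. For miR-130a and miR-203 the set and the transfection cannot be told apart, whereas miR-205 and scramble share a set. The luminal prostate genes KLK3, KLK2, TMPRSS2, HOXB13, KRT8 and KRT18 were above the floor on all 24 arrays, while FOLH1 had a median of only 3.35. Of the basal genes measured, the keratins KRT5 and KRT15 were at the floor on all 24 arrays and KRT14 on 22, while ITGB4 was at it on none (2.47 to 2.83). Of the fibroblast genes, COL1A2, DCN and LUM were at the floor on all 24 arrays, COL3A1 on 3 and VIM on 1, with highest values of 3.25 and 3.83, while COL1A1 lay at 3.06 to 4.53. The immune genes PTPRC, CD3D and CD14 were at the floor on all 24 arrays. Among the total RNA arrays of scramble, replicate 1 had an 18S rRNA level of 4.33, while replicates 2 and 3 had 2.83 and 3.05. Within a group the 35 tested genes had a median SD of 0.22 to 0.39 in AGO2-bound RNA and of 0.08 to 0.22 in total RNA. The number of arrays limits the precision.

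In total RNA the replication genes lay lowest after miR-205 and highest after miR-130a. The median level of the 35 genes was 6.90, 6.87 and 6.90 on the miR-130a arrays, 5.88, 6.07 and 6.07 on the miR-203 arrays, and 5.16, 5.69 and 5.44 on the miR-205 arrays, against 6.35, 6.33 and 6.18 on the scramble arrays. No array of 1 transfection overlapped another in this median. For single genes the order was much the same. The highest of the 4 group means was that of miR-130a for 33 of 35 genes. The lowest was that of miR-205 for 31 and that of miR-203 for the other 4. Such orders were not counted over all genes, so no share stands beside them. In bulk RNA, fewer dividing cells and less of each transcript per cell cannot be told apart. The 3 comparisons with scramble share the same scramble arrays.

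**Figure D1:**
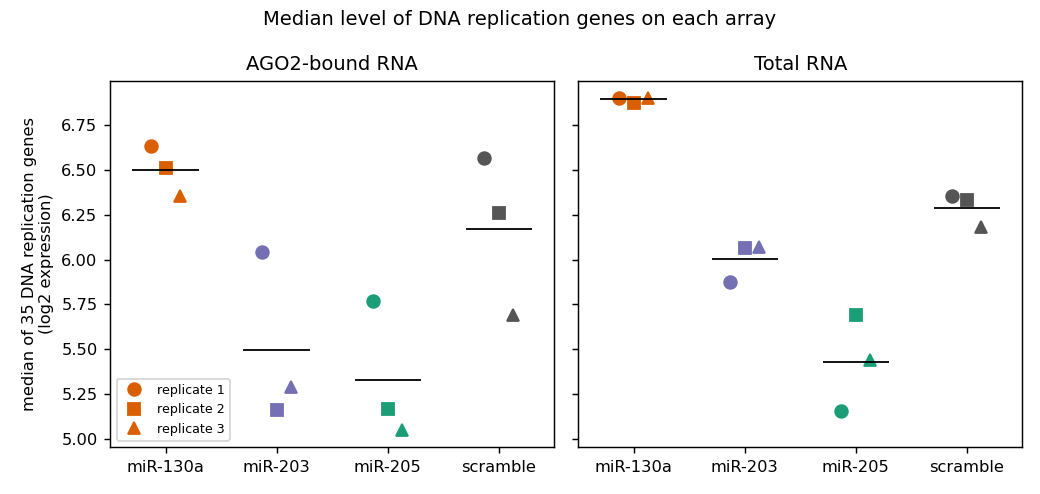
Median log2 level of the 35 tested DNA replication genes on each array, AGO2-bound RNA in the left panel and total RNA in the right panel, by transfection. Points are arrays, symbols mark the replicate number and bars are group means. Total RNA separates the 4 transfections, from 5.16 on a miR-205 array to 6.90 on the miR-130a arrays, while AGO2-bound arrays overlap and replicate 1 lies highest in every AGO2-bound group.

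After miR-205, 33 of the 35 genes fell in total RNA and none rose (adjusted p under 0.05, limma, Benjamini-Hochberg over all 6782 genes). A gene past this threshold is called below, and none lay higher at an unadjusted p under 0.05 either. Of all genes tested, 13.3% fell and 10.1% rose in that comparison. The median change of the 35 genes was -0.95 on the log2 scale, and -0.01 for all genes tested. Log2 changes are given as difference ± SE, from 3 against 3 arrays unless stated. For 33 members every miR-205 array lay below every scramble array, against 20.1% of all genes. The fall was at least 2-fold for 14 members, and the share of all genes with such a fall was not computed. Without scramble replicate 1, which stood apart in its 18S level, 32 members fell.

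All 10 tested licensing and helicase genes fell after miR-205. MCM5, a subunit of the MCM helicase, had 3.90, 4.54 and 4.39 on the miR-205 arrays, against 6.13, 6.23 and 5.80 on the scramble arrays. Every miR-205 array lay over 1 log2 unit below every scramble array, and MCM5 had the widest fall of all members, to 3.43-fold less. MCM7 of the same ring had 6.07, 6.66 and 6.44 after miR-205, against 7.69, 7.82 and 7.72 after scramble. MCM3 had 5.36, 5.40 and 5.60 after miR-205, against 6.47, 6.44 and 6.60 after scramble, with a change of -1.05 ± 0.11 (limma adjusted p = 3.4e-05). For both genes all miR-205 arrays were below all scramble arrays. The other subunits MCM2, MCM4 and MCM6 changed by -1.22 ± 0.15, -0.98 ± 0.18 and -1.12 ± 0.14. CDC6 and CDT1, which load the ring, changed by -1.27 ± 0.19 and -1.16 ± 0.18, and ORC6, a subunit of the origin recognition complex, by -0.95 ± 0.16. GMNN, which encodes geminin, the inhibitor of CDT1, fell least of these, by 0.66 ± 0.12. ORC1, which was too dim to be tested, had 2.50 on all 3 miR-205 arrays, against 2.96, 2.72 and 2.74 on the scramble arrays, close to the floor throughout.

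The helicase activators fell as a group, all 4 of 4 after miR-205. GINS2 changed by -1.39 ± 0.22, GINS1 by -1.25 ± 0.18, CDC45 by -1.12 ± 0.15 and MCM10, which helps to open the origin, by -0.84 ± 0.17. All 4 polymerase and primase genes fell too. PRIM1, the catalytic primase subunit, had 3.24, 4.19 and 3.79 on the miR-205 arrays, against 5.12, 4.91 and 4.69 on the scramble arrays, a change of -1.17 ± 0.21. The polymerase alpha subunits POLA2 and POLA1 changed by -0.90 ± 0.12 and -0.38 ± 0.10, and POLE2 of polymerase epsilon by -0.82 ± 0.14, with a mean after miR-205 of 2.71, close to the floor. Of the clamp and its loader 5 of 5 fell, among them PCNA, the sliding clamp, by 0.84 ± 0.11 and the loader subunits RFC2 by 0.90 ± 0.11 and RFC5 by 0.41 ± 0.12. The calls for POLA1, RFC5 and LIG1, the ligase that joins Okazaki fragments, ended without single arrays (LIG1 without miR-205 replicate 1, POLA1 without that array or scramble replicate 2 or 3, RFC5 without miR-205 replicate 2 or 3 or scramble replicate 1 or 3).

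Nucleotide supply followed the same direction after miR-205, with 5 of 5 genes lower. RRM2, the small subunit of ribonucleotide reductase, had 7.05, 7.75 and 7.63 on the miR-205 arrays, against 8.94, 8.76 and 8.75 on the scramble arrays, a change of -1.34 ± 0.16 (limma adjusted p = 8.9e-05). The miR-205 arrays were all below the scramble arrays. Thymidine kinase TK1 changed by -1.34 ± 0.20, thymidylate synthase TYMS by -1.08 ± 0.13, the large reductase subunit RRM1 by -0.99 ± 0.12 and the dUTPase DUT by -0.61 ± 0.11. FEN1, the flap nuclease, changed by -0.96 ± 0.13. Of the regulators of S phase entry, the phosphatase CDC25A changed by -0.78 ± 0.11 and the transcription factor E2F1 by -0.48 ± 0.08.

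The 2 genes that did not pass the threshold after miR-205 were RPA1 and CHAF1A. RPA1, the large subunit of the single-strand binding complex RPA, had 7.65, 7.86 and 7.90 on the miR-205 arrays, against 7.95, 7.80 and 7.63 on the scramble arrays. The arrays overlapped, and the difference was 0.01 ± 0.11. RPA2 of the same complex changed by -0.39 ± 0.10, a call that ended without miR-205 replicate 1. RPA3, its smallest subunit and not a member, changed by -1.11 ± 0.12. CHAF1A, a subunit of the chromatin assembly factor that deposits histones behind the fork, had 5.07, 5.07 and 5.20 on the miR-205 arrays, against 5.55, 5.20 and 5.08 on the scramble arrays, a difference of -0.16 ± 0.13. Its 2 other probe sets lay lower by -0.54 and -0.92, so whether CHAF1A stands outside the fall depends on the probe set.

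**Figure D2:**
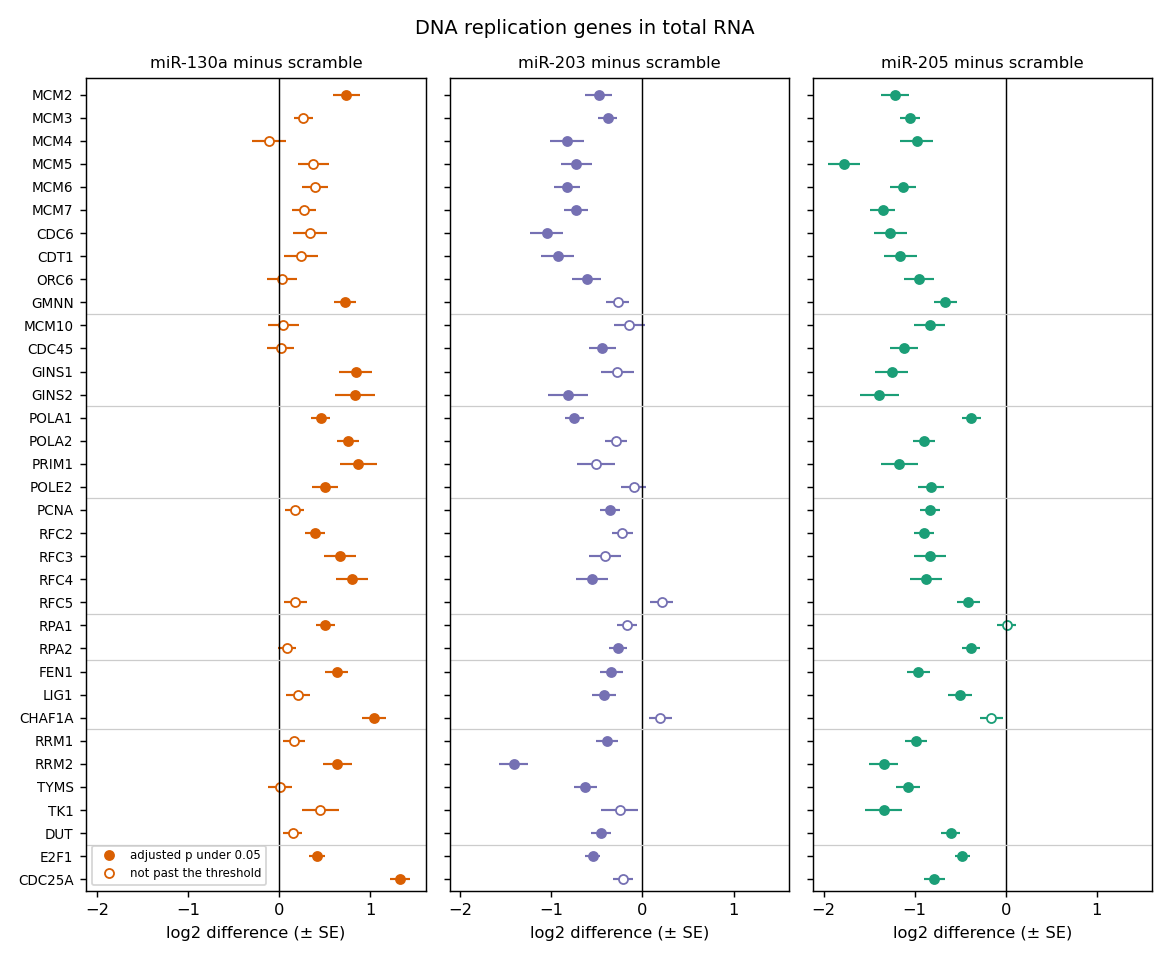
Log2 difference from scramble in total RNA of the 35 tested genes, grouped by role, after miR-130a, miR-203 and miR-205. Points are differences between means of 3 arrays and lines are ± SE from limma. Filled points pass an adjusted p of 0.05, which 17 genes do above 0 after miR-130a, 22 below 0 after miR-203 and 33 below 0 after miR-205.

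After miR-203, 22 of the 35 genes fell in total RNA and none rose, also at an unadjusted p under 0.05, where 19.8% of all genes fell and 19.8% rose. The median change was -0.42, against 0.01 for all genes. The groups did not overlap for 25 members that lay below scramble, against 24.1% of all genes. RRM2 had 7.20, 7.61 and 7.39 on the miR-203 arrays, against 8.94, 8.76 and 8.75 on the scramble arrays, a change of -1.41 ± 0.16 (limma adjusted p = 3.1e-05). This was the widest change of a member after miR-203, and the arrays of the groups lay apart. CDC6 had 3.98, 4.39 and 4.42 on the miR-203 arrays, against 5.15, 5.69 and 5.11 on the scramble arrays, a change of -1.05 ± 0.19, and was the only other member at least 2-fold lower.

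The 3 further genes with the smallest p after miR-203 were POLA1, E2F1 and MCM6. POLA1, the catalytic subunit of polymerase alpha, had 2.86, 2.70 and 2.72 on the miR-203 arrays, against 3.36, 3.60 and 3.57 on the scramble arrays, a change of -0.75 ± 0.10. The miR-203 arrays lay close to the floor. E2F1 had 3.23, 3.09 and 3.13 on the miR-203 arrays, against 3.79, 3.73 and 3.58 on the scramble arrays, a change of -0.55 ± 0.08. MCM6 had 6.76, 6.96 and 7.21 on the miR-203 arrays, against 7.89, 7.92 and 7.60 on the scramble arrays, a change of -0.83 ± 0.14. In all 3 genes every miR-203 array was below every scramble array.

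By role, 9 of 10 licensing and helicase genes and 4 of 5 nucleotide supply genes fell after miR-203, but 1 of 4 polymerase and primase genes and 2 of 5 clamp and clamp loader genes. Among the genes that did not pass, PRIM1 differed by -0.51 ± 0.21, RFC3 by -0.41 ± 0.18, TK1 by -0.25 ± 0.20 and CDC25A by -0.21 ± 0.11, while RFC5 and CHAF1A lay at 0.21 ± 0.12 and 0.20 ± 0.13. The other probe sets of these genes had the opposite sign, at -0.37 and -0.73 for RFC5 and at -0.24 and -1.24 for CHAF1A. The count of 22 was 13 without miR-203 replicate 1, 14 with no filter on dim genes and 10 with all 24 arrays in the fit. Without scramble replicate 1, 15 members fell and CHAF1A was called higher, by the probe set used. Calls for MCM4, MCM5, MCM6, CDC6, CDT1, ORC6, RRM2, POLA1 and E2F1, 9 in all, stood under every alternative run.

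After miR-130a, 17 of the 35 genes rose in total RNA and none fell, also at an unadjusted p under 0.05, where 15.9% of all genes rose and 13.3% fell. The median change was 0.40, against 0.01 for all genes. The groups did not overlap for 26 members that lay above scramble, against 24.5% of all genes, and 17 rose without scramble replicate 1 too. CDC25A, which removes inhibitory phosphates from cyclin-dependent kinases, had 5.27, 5.35 and 5.41 on the miR-130a arrays, against 4.01, 4.09 and 3.95 on the scramble arrays. The 3 arrays of each group lay within 0.2 of each other and over 1 log2 unit apart from the other group, a rise of 2.51-fold. CHAF1A had 6.07, 6.44 and 6.44 on the miR-130a arrays, against 5.55, 5.20 and 5.08 on the scramble arrays, a change of 1.04 ± 0.13 (limma adjusted p = 0.00011). The second probe set of CDC25A differed by 0.36, and those of CHAF1A by 0.31 and 0.48, so the size of both rises depends on the probe set.

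POLA2 had 5.86, 5.77 and 5.74 on the miR-130a arrays, against 5.22, 5.07 and 4.82 on the scramble arrays, a change of 0.75 ± 0.12. GMNN had 8.13, 8.16 and 8.24 on the miR-130a arrays, against 7.52, 7.51 and 7.34 on the scramble arrays, a change of 0.72 ± 0.12. For both genes the groups lay apart. All 4 polymerase and primase genes rose after miR-130a, among them PRIM1 by 0.87 ± 0.21, as did GINS1 by 0.84 ± 0.18, RFC4 of the clamp loader by 0.80 ± 0.18, FEN1 by 0.63 ± 0.13 and RPA1 by 0.51 ± 0.11. In the helicase and licensing group 2 of 10 rose, MCM2 by 0.74 ± 0.15 and GMNN, while MCM3, MCM5, MCM6 and MCM7 differed by 0.27 ± 0.11, 0.37 ± 0.17, 0.40 ± 0.14 and 0.28 ± 0.13. MCM4 was the only member below 0, at -0.11 ± 0.18, and its other probe sets above the filter lay at 0.75 and 0.36. Of the nucleotide supply genes 1 of 5 rose, RRM2 by 0.64 ± 0.16, and TYMS and RRM1 lay at 0.01 ± 0.13 and 0.16 ± 0.12. The call for GINS2 (0.83 ± 0.22) ended without scramble replicate 3, as did those for RFC2, RFC3 and POLE2, of which RFC2 and POLE2 also ended without miR-130a replicate 1 and RFC2 without scramble replicate 1.

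The microRNAs were also set against each other. By its floor each pair lies in different sets of arrays, so the set and the transfection cannot be told apart in any pair. Total RNA after miR-205 was lower than after miR-130a at 35 of 35 genes, with a median of -1.33, where 21.9% of all genes were lower and 16.9% higher. All miR-205 arrays lay below all miR-130a arrays for each of the 35 genes, against 30% of all genes. CDC25A had 3.30, 3.08 and 3.31 after miR-205, against 5.27, 5.35 and 5.41 after miR-130a, a difference of -2.11 ± 0.11 (limma adjusted p = 4.2e-08). By its second probe set the gap was smaller, with means of 2.96 after miR-205 and 3.61 after miR-130a. MCM2 differed by -1.96 ± 0.15, FEN1 by -1.59 ± 0.13 and POLA2 by -1.65 ± 0.12. RPA2 differed least, by -0.47 ± 0.10, and its call ended with all 24 arrays in the fit.

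Total RNA after miR-130a was higher than after miR-203 at 33 of 35 genes and lower at none, with a median of 0.96, where 23.8% of all genes were higher and 21.4% lower. The groups did not overlap for 33 members that lay higher after miR-130a, against 29% of all genes, and 28.6% of all genes lay lower without overlap. The 2 exceptions were MCM10 (0.19 ± 0.17) and RFC5 (-0.03 ± 0.12). RRM2 had 9.49, 9.44 and 9.43 with miR-130a, against 7.20, 7.61 and 7.39 with miR-203, a difference of 2.05 ± 0.16 (limma adjusted p = 1.4e-06). CDC25A, POLA1 and E2F1 differed by 1.54 ± 0.11, 1.21 ± 0.10 and 0.96 ± 0.08. By its second probe set CDC25A averaged 3.61 after miR-130a and 2.72 after miR-203, a smaller gap. These groups, too, come from different normalization sets.

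After miR-205, 20 of the 35 genes were lower than after miR-203 and 1 was higher, with a median of -0.48, where 23.2% of all genes were lower and 18.6% higher. The groups did not overlap for 19 members that lay lower and 1 that lay higher after miR-205, against 29.3% and 23.3% of all genes. TK1 had 4.83, 5.85 and 5.44 after miR-205, against 6.44, 6.61 and 6.35 after miR-203, a difference of -1.09 ± 0.20 (limma adjusted p = 0.001). MCM5, MCM3 and RFC2 differed by -1.05 ± 0.17, -0.67 ± 0.11 and -0.68 ± 0.11. POLA1 ran the other way, with 3.07, 3.16 and 3.16 after miR-205, against 2.86, 2.70 and 2.72 after miR-203, a difference of 0.37 ± 0.10. RRM2 (0.08 ± 0.16), E2F1 (0.07 ± 0.08) and CDC6 (-0.21 ± 0.19) did not differ beyond the threshold.

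The promoters of 4 members are printed because these genes all fell in total RNA after miR-205. In AGO2-bound RNA 2 of them, PRIM1 and GMNN, rose after miR-205. Each run is the 250 bases before the transcription start in the orientation of the gene (RefSeq, GRCh38.p14). The regions are chr16:85688955-85689204 for GINS2, chr2:135876444-135876693 for MCM6 and chr12:56752324-56752573 for PRIM1, all on the minus strand. For GMNN the region is chr6:24775163-24775412 on the plus strand. GMNN has another start, and the start with more E2F-type matches is shown. The window before the other start held 0 E2F-type motifs and 0 CCAAT boxes. Capitals mark E2F-type motifs (TTTCCCGC, TTTGGCGC, TTTCGCGC or TTTGCCGC) and the CCAAT box (CCAAT), each on either strand. In MCM6 the E2F-type matches overlap in pairs, so 4 matches form 2 stretches, and PRIM1 has none.
GINS2: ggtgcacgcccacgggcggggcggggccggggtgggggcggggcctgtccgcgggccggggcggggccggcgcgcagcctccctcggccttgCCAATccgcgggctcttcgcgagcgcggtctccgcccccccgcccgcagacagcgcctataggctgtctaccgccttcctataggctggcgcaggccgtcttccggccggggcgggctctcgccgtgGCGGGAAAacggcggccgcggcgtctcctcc
MCM6: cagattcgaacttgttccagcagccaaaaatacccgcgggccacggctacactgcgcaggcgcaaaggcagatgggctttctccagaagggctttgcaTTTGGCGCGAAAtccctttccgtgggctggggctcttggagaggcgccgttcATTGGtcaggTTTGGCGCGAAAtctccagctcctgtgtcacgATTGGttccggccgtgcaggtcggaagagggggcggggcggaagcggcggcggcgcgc
PRIM1: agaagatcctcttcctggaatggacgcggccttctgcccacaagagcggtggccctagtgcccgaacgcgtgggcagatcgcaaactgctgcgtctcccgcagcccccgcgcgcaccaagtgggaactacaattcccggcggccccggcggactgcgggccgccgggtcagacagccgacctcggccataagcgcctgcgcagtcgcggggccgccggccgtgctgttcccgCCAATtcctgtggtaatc
GMNN: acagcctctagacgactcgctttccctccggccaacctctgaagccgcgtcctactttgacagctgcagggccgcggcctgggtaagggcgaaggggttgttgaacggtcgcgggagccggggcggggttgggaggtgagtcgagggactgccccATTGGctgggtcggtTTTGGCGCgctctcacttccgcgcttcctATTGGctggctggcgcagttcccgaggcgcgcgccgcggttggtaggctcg

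Of the 33 members with an entry of promoters, 15 (45.5%) held an E2F-type motif in at least 1 such window, among them CDC25A, MCM3, MCM7, PCNA, RFC3, POLA1, POLA2 and E2F1 itself. Of all 27305 genes with an entry, 3.40% held one. A CCAAT box was found in 22 of the 33 members (66.7%) and in 37.0% of all genes. MCM4, MCM5 and RPA2 are named only. A match is a description of letters in this window and not a bound site.

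In AGO2-bound RNA the pattern was less uniform, with members moving in both directions. The median level of the 35 genes was 6.63, 6.51 and 6.35 on the miR-130a arrays, 6.04, 5.16 and 5.29 on the miR-203 arrays, and 5.77, 5.17 and 5.05 on the miR-205 arrays, against 6.56, 6.26 and 5.69 on the scramble arrays. Replicate 1 lay highest in each group, and arrays of different transfections overlapped. The highest group mean was that of miR-130a for 26 genes, scramble for 5 and miR-205 for 4. The lowest was that of miR-205 for 20, miR-203 for 11 and scramble for 4. These orders were not counted over all genes either. Control probe sets moved beside these levels. The mean of the spike-in controls was lowest on replicate 1 and highest on replicate 3 in each of the 4 groups, with 6.59, 6.89 and 7.47 on the miR-130a arrays, 6.63, 6.94 and 7.25 on the miR-203 arrays, and 6.29, 6.78 and 7.95 on the miR-205 arrays, against 6.76, 7.10 and 7.55 on the scramble arrays. The 18S signal was 9.05, 8.08 and 8.80 on the AGO2-bound miR-203 arrays, against 7.56, 7.39 and 7.95 on those of scramble. For GAPDH the level at the 3 prime end minus that at the 5 prime end was 0.60 to 0.89 after miR-203, against 1.23 to 1.57 after scramble. Their part in the results was not tested.

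The clamp loader and RPA genes RFC3, RFC4, RPA1 and RPA2, were lower in AGO2-bound RNA after each of the 3 microRNAs than after scramble, comparisons that share the scramble arrays. RFC4 and RFC3 encode subunits of the clamp loader, and RPA1 and RPA2 the large and middle subunits of RPA. RFC4 had 6.37, 6.12 and 5.89 with miR-130a, 5.01, 4.86 and 4.34 with miR-203, and 5.00, 4.47 and 4.33 with miR-205, against 8.11, 8.34 and 7.58 with scramble. Each microRNA array lay over 1 log2 unit below each scramble array. The changes were -1.88 ± 0.24 (limma adjusted p = 2.7e-05), -3.28 ± 0.24 (1.1e-07) and -3.42 ± 0.24 (6.5e-08), the last a 10.7-fold fall.

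RFC3 had 6.34, 5.64 and 5.78 with miR-130a, 5.48, 4.42 and 4.50 with miR-203, and 5.32, 4.59 and 4.28 with miR-205, against 7.75, 7.53 and 6.95 with scramble, with changes of -1.49 ± 0.32, -2.61 ± 0.32 and -2.68 ± 0.32. RPA2 had 7.20, 6.60 and 6.42 with miR-130a, 6.43, 5.97 and 5.67 with miR-203, and 7.13, 6.68 and 6.25 with miR-205, against 8.26, 8.34 and 7.73 with scramble. Its changes were -1.37 ± 0.27, -2.09 ± 0.27 and -1.42 ± 0.27. RPA1 had 8.02, 7.78 and 7.89 with miR-130a, 7.64, 7.20 and 7.43 with miR-203, and 8.0, 8.2 and 8.0 with miR-205, against 8.83, 8.96 and 8.66 with scramble, with changes of -0.92 ± 0.15, -1.40 ± 0.15 and -0.75 ± 0.15. In all 3 genes and all 3 comparisons the microRNA arrays lay below the scramble arrays. A second probe set of RFC3 differed by -1.14, -1.86 and -2.34, and that of RPA1 by -0.76, -1.62 and -0.46, for miR-130a, miR-203 and miR-205. The 3 other members of the clamp group were not called lower after any microRNA. PCNA and RFC2 rose after miR-130a, and RFC5 rose after miR-203 and miR-205 by the probe set used. PCNA lay lower after miR-203 and miR-205 without passing, with means of 8.47 and 8.38 against 8.89 with scramble. The 2 other probe sets of RFC5 differed by -0.13 and -0.53 after miR-203, and by -0.83 and -0.58 after miR-205.

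**Figure D3:**
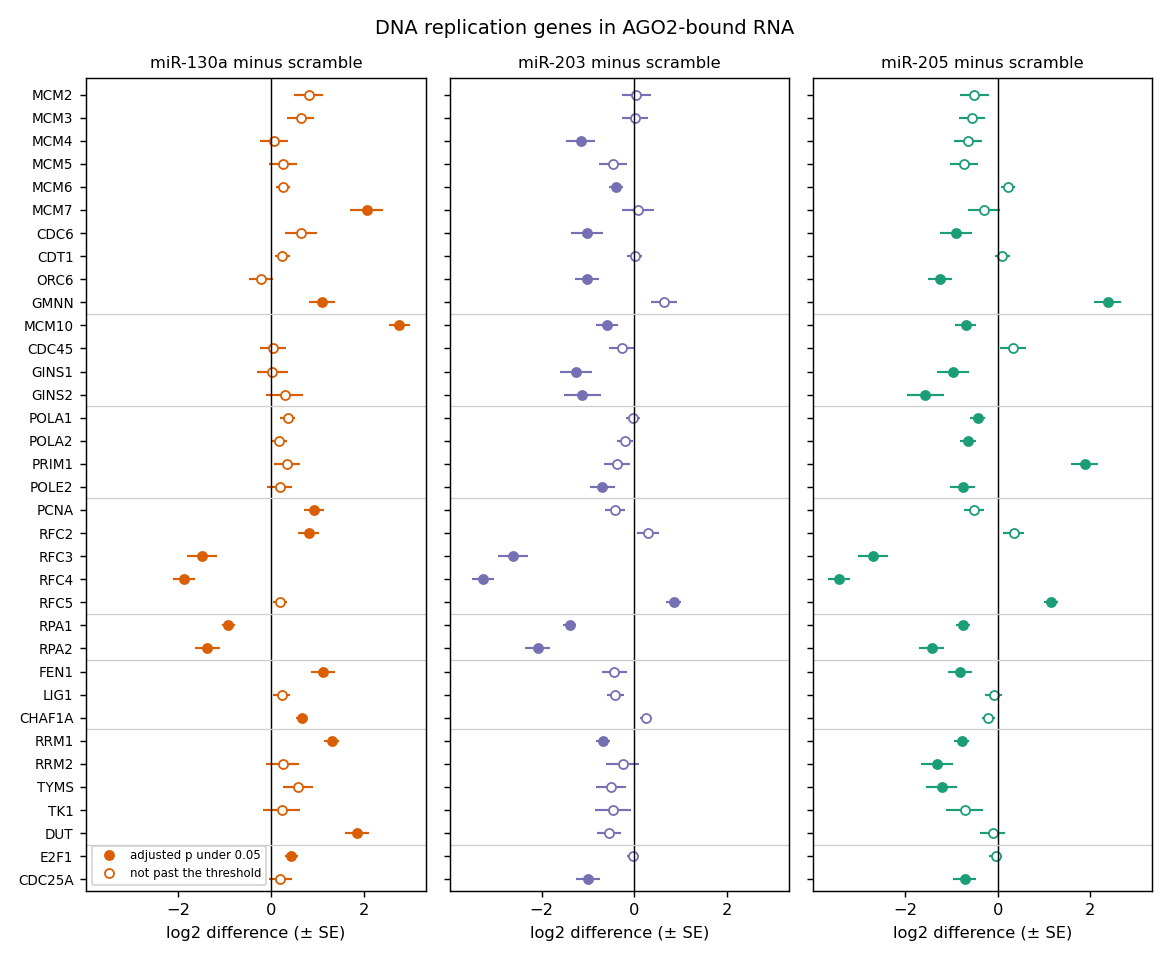
Log2 difference from scramble in AGO2-bound RNA of the 35 tested genes, grouped by role, after miR-130a, miR-203 and miR-205. Points are differences between means of 3 arrays and lines are ± SE from limma, with filled points past an adjusted p of 0.05. RFC3, RFC4, RPA1 and RPA2 lie below 0 in all 3 panels, MCM10 at 2.77 after miR-130a, and GMNN and PRIM1 at 2.37 and 1.87 after miR-205.

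After miR-130a, 10 of the 35 genes rose in AGO2-bound RNA and the 4 named above fell, where 18.6% of all genes rose and 19.9% fell. The median change was 0.26, against -0.05 for all genes, and the groups did not overlap for 12 members that lay higher and 4 that lay lower (24.5% and 27.3% of all genes). Same-numbered arrays of AGO2-bound miR-130a and scramble RNA deviated together, and with the replicate number as a block 15 members rose and 4 fell. The shares of all genes given here come from the fit without the block. MCM10 had 6.91, 7.21 and 7.07 on the miR-130a arrays, against 4.76, 4.27 and 3.84 on the scramble arrays, a change of 2.77 ± 0.23 (limma adjusted p = 7e-07), or 6.82-fold. Its levels were 3.42 to 4.05 on the AGO2-bound miR-203 arrays and 3.28 to 3.93 on those of miR-205. In total RNA the MCM10 difference after miR-130a was 0.05 ± 0.17.

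MCM7 had 7.79, 7.36 and 6.71 on the AGO2-bound miR-130a arrays, against 5.74, 5.08 and 4.85 on the scramble arrays, a change of 2.06 ± 0.35. DUT, which keeps uracil out of DNA, had 10.2, 9.84 and 9.33 on the miR-130a arrays, against 8.33, 7.77 and 7.69 on the scramble arrays, a change of 1.86 ± 0.26. RRM1 had 9.34, 9.43 and 9.40 on the miR-130a arrays, against 8.19, 8.07 and 7.97 on the scramble arrays, a change of 1.31 ± 0.16 (limma adjusted p = 1.9e-05). For all 3 genes the groups lay apart, and in total RNA they differed by 0.28 ± 0.13, 0.15 ± 0.11 and 0.16 ± 0.12 without passing the threshold. Second probe sets of MCM7, DUT and RRM1 also lay higher, by 2.19, 2.01 and 1.55, and another of DUT by 0.67. FEN1, GMNN, PCNA and CHAF1A rose by 1.12 ± 0.26, 1.10 ± 0.29, 0.93 ± 0.21 and 0.67 ± 0.14. The calls for RFC2 (0.81 ± 0.23) and E2F1 (0.44 ± 0.14) ended without scramble replicate 3, and that for E2F1 also without miR-130a replicate 1 or 2.

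After miR-205, 17 of the 35 genes fell in AGO2-bound RNA and 3 rose, where 23.7% of all genes fell and 20.4% rose. The median change was -0.65, against -0.06 for all genes, and the groups did not overlap for 12 members that lay lower and 4 that lay higher (27.9% and 23.6% of all genes). The 3 that rose were GMNN, PRIM1 and RFC5. GMNN had 8.61, 8.57 and 7.85 on the miR-205 arrays, against 6.56, 5.97 and 5.39 on the scramble arrays, a change of 2.37 ± 0.29 (limma adjusted p = 1.4e-05). PRIM1 had 6.34, 5.50 and 4.85 on the miR-205 arrays, against 3.96, 3.66 and 3.46 on the scramble arrays, a change of 1.87 ± 0.29 (limma adjusted p = 0.00012). For both genes the lowest miR-205 array was above the highest scramble array, and in total RNA both fell.

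RFC5 had 8.69, 8.66 and 9.20 on the AGO2-bound miR-205 arrays, against 7.64, 7.87 and 7.60 on the scramble arrays, a change of 1.15 ± 0.15. Its 2 other probe sets averaged 5.33 and 2.70 after miR-205, against 6.15 and 3.28 after scramble, so the direction for RFC5 belongs to 1 probe set. Among the genes that fell, ORC6 had 5.62, 5.17 and 5.11 on the miR-205 arrays, against 7.07, 6.54 and 6.04 on the scramble arrays, a change of -1.24 ± 0.26. GINS2 fell by 1.56 ± 0.40, RRM2 by 1.31 ± 0.35, TYMS by 1.21 ± 0.32, RRM1 by 0.78 ± 0.16 and POLA2 by 0.65 ± 0.17. The MCM2 to MCM7 subunits, which all fell in total RNA, did not pass in AGO2-bound RNA, from -0.73 ± 0.30 for MCM5 to 0.22 ± 0.15 for MCM6. The count of 17 lower genes was 10 without miR-205 replicate 2, 11 without miR-205 replicate 3, 10 without scramble replicate 1 or 2, and 7 with no filter on dim genes. Calls for CDC6, CDC25A, FEN1, GINS1, MCM10, POLA1 and POLE2 ended in at least 1 of these sets of arrays, and those for GINS2, RRM2 and TYMS with no filter.

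After miR-203, 14 of the 35 genes fell in AGO2-bound RNA and RFC5 rose, where 28.8% of all genes fell and 22.7% rose. The median change was -0.43, against -0.09 for all genes, and the groups did not overlap for 9 members that lay lower and 2 that lay higher (33.5% and 26.8% of all genes). With the replicate number as a block, which the arrays of miR-203 and scramble bear out, 21 fell and 2 rose, GMNN being the second (0.64, limma adjusted p = 0.0014). The shares of all genes above are from the fit without the block. RFC5 had 8.56, 8.57 and 8.51 on the miR-203 arrays, against 7.64, 7.87 and 7.60 on the scramble arrays, a change of 0.85 ± 0.15. It did not pass with the mean of its probe sets (limma adjusted p = 0.79), when no member was called higher. The count of 14 was 9 without miR-203 replicate 2, without miR-203 replicate 3 or without scramble replicate 1, and without that scramble array 3 members rose.

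Beside the 4 genes of the clamp loader and RPA, those that fell after miR-203 included MCM4, GINS1 and ORC6. MCM4 had 4.69, 4.12 and 3.53 on the miR-203 arrays, against 5.68, 5.15 and 4.99 on the scramble arrays, a change of -1.16 ± 0.31, while its other probe sets above the filter differed by -0.23 and -0.56. The MCM4 call ended with the mean of its probe sets (-0.50, limma adjusted p = 0.0571). GINS1 changed by -1.27 ± 0.34. ORC6, at -1.02 ± 0.26, had 6.04, 5.16 and 5.37 on the miR-203 arrays and 7.07, 6.54 and 6.04 on the scramble arrays, which met at 6.04. RRM2, with the widest fall in total RNA, had 9.89, 8.73 and 9.25 on the AGO2-bound miR-203 arrays, against 9.95, 9.62 and 9.05 on the scramble arrays, overlapping at -0.25 ± 0.35. RPA3 had 11.9, 11.7 and 11.2 on the AGO2-bound miR-205 arrays and 5.63, 5.69 and 5.62 on those of miR-203, against 5.73, 5.61 and 5.68 on those of scramble. RPA3 was thus higher after miR-205, by 5.93 ± 0.22, where RPA1 and RPA2 were lower.

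**Figure D4:**
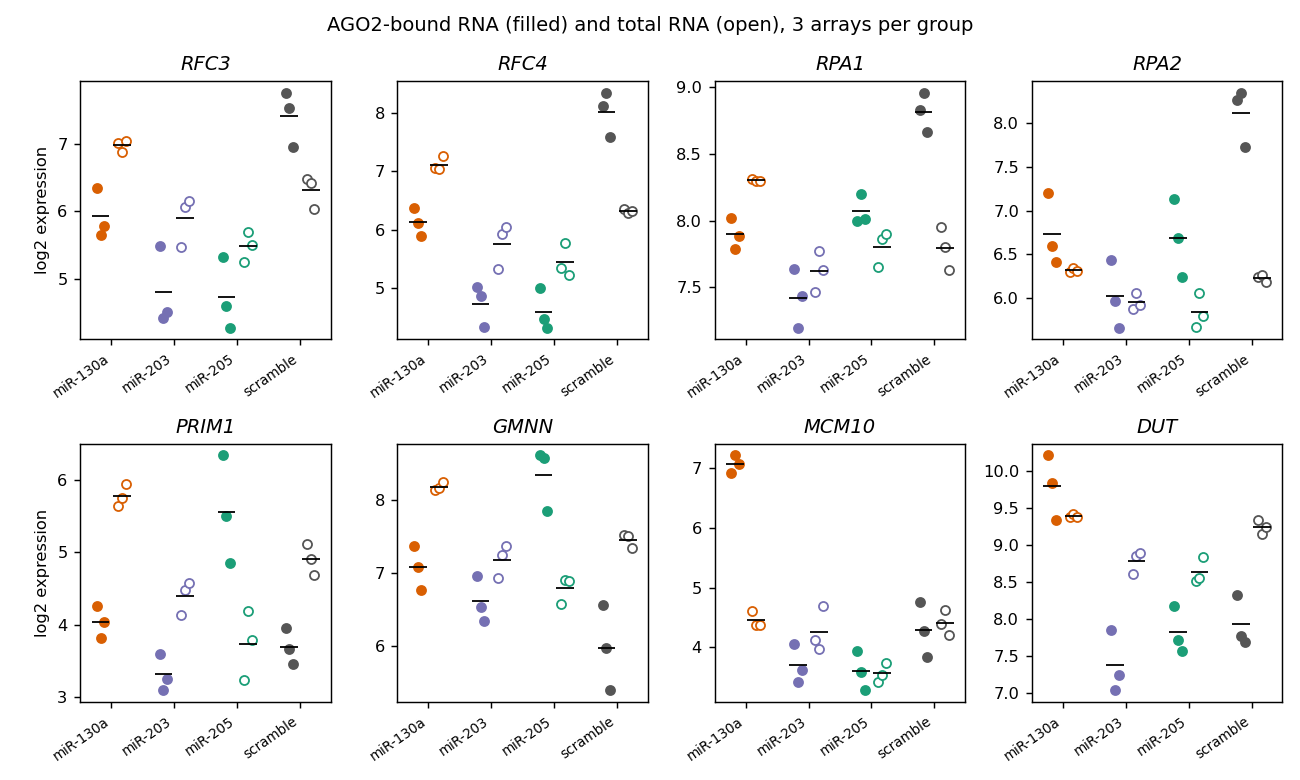
Log2 levels on each array of members with the widest differences, in AGO2-bound and total RNA, by transfection. Points are single arrays and bars are group means. RFC4 on the AGO2-bound scramble arrays (7.58 to 8.34) lies above all other RFC4 arrays, and GMNN on the AGO2-bound miR-205 arrays (7.85 to 8.61) above all AGO2-bound arrays of the other transfections.

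The change in AGO2-bound RNA was then set against the change in total RNA in 1 fit of all 24 arrays. A positive value means that AGO2-bound RNA changed upward relative to total RNA. After miR-130a, 5 members were higher and 6 lower in this test, where 16.2% of all genes were higher and 18.4% lower. MCM10 (2.72 ± 0.30, limma adjusted p = 1.3e-07), MCM7 (1.79 ± 0.40), DUT (1.71 ± 0.30) and RRM1 (1.15 ± 0.20) were higher. RFC4 (-2.68 ± 0.31), RFC3 (-2.16 ± 0.39), RPA2 (-1.46 ± 0.30), RPA1 (-1.43 ± 0.18) and CDC25A (-1.12 ± 0.29) were lower. By the second probe set of CDC25A the changes lay closer together, at 0.03 in AGO2-bound and 0.36 in total RNA.

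After miR-203, 6 members were higher and 6 lower beyond total RNA, where 22.1% of all genes were higher and 27% lower. The fall of RFC4, RFC3, RPA2 and RPA1 was again larger in AGO2-bound RNA, by 2.72 ± 0.31 for RFC4. CDT1 (0.94 ± 0.25), POLA1 (0.72 ± 0.19) and E2F1 (0.52 ± 0.16) were called lower in total RNA and not in AGO2-bound RNA, where CDT1 averaged 2.65 after both miR-203 and scramble, close to the floor. RRM2 was higher by 1.16 ± 0.41, while its second probe set changed by -0.67 in AGO2-bound and by -1.11 in total RNA. The RRM2 call ended with the mean of its probe sets, and without AGO2-bound or total miR-203 replicate 1 or AGO2-bound scramble replicate 3.

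After miR-205, 10 members were higher and 4 lower beyond total RNA, where 21.1% of all genes were higher and 21.7% lower. The median was 0.32, against -0.06 for all genes. PRIM1 (3.04 ± 0.37) and GMNN (3.03 ± 0.33, limma adjusted p = 5.2e-08) stood furthest out, followed by RFC5 on the probe set used (1.56 ± 0.20), CDC45 (1.44 ± 0.33), MCM6 (1.34 ± 0.21), CDT1 (1.26 ± 0.25) and RFC2 (1.25 ± 0.27). Of the licensing and helicase genes 5 of 10 were higher, CDT1 among them, and none was lower. In AGO2-bound RNA CDT1 averaged 2.75 after miR-205 and 2.65 after scramble, close to the floor, where a fall would be compressed. The calls for MCM5, MCM7 and E2F1 ended without single arrays. For MCM5 these were replicate 1 of AGO2-bound or total miR-205 RNA, AGO2-bound scramble replicate 3 and total scramble replicate 2. For MCM7 they were AGO2-bound miR-205 replicate 1 or 2, total miR-205 replicate 1, and scramble replicate 2 or 3 of either kind of RNA. For E2F1 they were AGO2-bound miR-205 replicate 1 or 2, total miR-205 replicate 2 or 3, AGO2-bound scramble replicate 3 and total scramble replicate 1 or 2. RFC4, RFC3, RPA2 and RPA1 were the 4 lower genes.

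**Figure D5:**
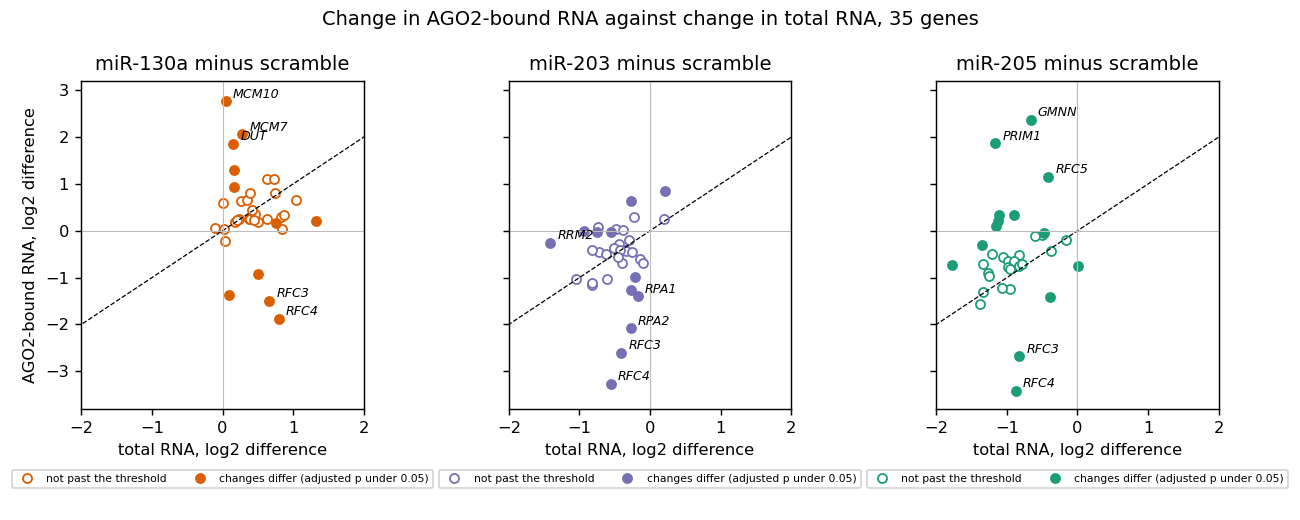
Change in AGO2-bound RNA (vertical, log2 difference from scramble) against change in total RNA (horizontal) for the 35 tested genes, 1 panel per microRNA. Filled points are genes whose changes differ between the kinds of RNA (adjusted p under 0.05, limma), and the dashed line marks equal change. RFC4 lies at the bottom of each panel, MCM10 at the top after miR-130a and GMNN and PRIM1 at the top after miR-205.

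The level in AGO2-bound RNA against that in total RNA, within a transfection, was compared next. The kinds of RNA differed widely on control probe sets. Group means of the 18S level were 7.63 to 8.64 in AGO2-bound and 3.40 to 3.74 in total RNA, and those of the spike-in controls 6.94 to 7.14 and 5.82 to 6.02. For scramble the GAPDH difference between the ends was 1.40 in AGO2-bound and 0.77 in total RNA. Their part in these differences was not tested. In scramble cells, 10 members were higher in AGO2-bound RNA and 15 lower, where 35.1% of all genes were higher and 37.8% lower. CDC25A had 6.93, 6.67 and 6.15 on the AGO2-bound scramble arrays, against 4.01, 4.09 and 3.95 on the total RNA scramble arrays, a difference of 2.57 ± 0.21. RPA2 (1.88 ± 0.21), GINS1 (1.83 ± 0.29), RFC4 (1.69 ± 0.22) and RPA1 (1.02 ± 0.13) were higher as well. MCM7 had 5.74, 5.08 and 4.85 on the AGO2-bound arrays, against 7.69, 7.82 and 7.72 on the total RNA arrays, a difference of -2.52 ± 0.28, and MCM2, MCM6 and TYMS differed by -2.20 ± 0.26, -1.29 ± 0.15 and -1.90 ± 0.26. These member counts are near the shares of all genes.

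After miR-130a, 6 members were higher in AGO2-bound than in total RNA and 15 lower, where 33.3% of all genes were higher and 38.3% lower. MCM10 led at 2.61 ± 0.21, and POLA2, MCM6 and MCM2 lay at -1.44 ± 0.15, -1.43 ± 0.15 and -2.13 ± 0.26. After miR-203 the counts were 7 higher and 17 lower, with 34.7% and 37.2% of all genes, and RRM2 lay at 1.89 ± 0.29 and TYMS at -1.76 ± 0.26. A second probe set of RRM2 averaged 7.59 in AGO2-bound and 7.05 in total RNA there, a smaller gap. After miR-205 they were 13 higher and 9 lower, with 36.6% and 36.1% of all genes. CDC25A was higher in AGO2-bound RNA in all 4 transfections, by 1.44 ± 0.21 with miR-130a, 1.78 ± 0.21 with miR-203, 2.64 ± 0.21 with miR-205 and 2.57 ± 0.21 with scramble. By its second probe set the gaps were much smaller. With miR-130a that set averaged 3.91 in AGO2-bound and 3.61 in total RNA, with miR-203 its means were 3.25 in AGO2-bound and 2.72 in total RNA, with miR-205 they were 3.54 and 2.96 in the same order, and with scramble 3.89 and 3.25. CDC6, GINS1 and GINS2 were also higher in all 4, and MCM2, MCM7, ORC6, POLA2 and TYMS lower in all 4, by the probe sets used. RFC4 and RFC3 were higher in AGO2-bound RNA after scramble and lower after each microRNA, while GMNN and PRIM1 were higher after miR-205 and lower after the other transfections.

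Other DNA replication genes, 42 outside the members of which 38 were tested, moved less in one direction than the members after miR-205 and miR-203. After miR-130a they moved much as the members did in total RNA, where 17 of 35 members rose with a median of 0.40. In total RNA 14 fell and 3 rose after miR-205, 11 fell and 6 rose after miR-203, and 2 fell and 15 rose after miR-130a, with medians of -0.32, -0.19 and 0.35. Of all genes, 13.3% fell and 10.1% rose after miR-205, 19.8% and 19.8% after miR-203, and 13.3% and 15.9% after miR-130a. Those with the smallest p after miR-205 were RNASEH2A, a subunit of the nuclease that removes RNA from DNA (-1.59 ± 0.11), the histone chaperone ASF1B (-1.53 ± 0.16) and RPA3. RFC1, the large clamp loader subunit, rose by 0.86 ± 0.10 after miR-130a, and WDHD1 and GINS3 by 0.99 ± 0.13 and 0.70 ± 0.12. In AGO2-bound RNA 11 fell and 5 rose after miR-205, 11 fell and 8 rose after miR-203, and 2 fell and 10 rose after miR-130a. There 23.7% of all genes fell and 20.4% rose after miR-205, 28.8% and 22.7% after miR-203, and 19.9% and 18.6% after miR-130a. The AGO2-bound counts after miR-203 are near these shares. DBF4, the activator of the CDC7 kinase that fires origins, fell by 1.60 ± 0.19, 1.48 ± 0.19 and 1.14 ± 0.19 after miR-205, miR-203 and miR-130a. The list was chosen with results of these data known.

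Second probe sets bear on how far a value belongs to a gene. Of 18 further probe sets of the members above the filter, those with the same sign as the one used were 17 after miR-205, 14 after miR-203 and 16 after miR-130a in total RNA, and 16, 14 and 17 in AGO2-bound RNA. For RRM1 and MCM7 the sets went opposite ways between the kinds of RNA after miR-130a. For MCM7 the set used averaged 7.29 in AGO2-bound and 8.02 in total RNA, while the second averaged 7.87 in AGO2-bound and 7.56 in total RNA. For RRM1 the set used averaged 9.39 in AGO2-bound and 8.46 in total RNA after miR-130a, while the second averaged 4.68 in AGO2-bound and 6.15 in total RNA.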

How the data were processed

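The deposited log2 values, 1 per probe set and array, were used as the authors made them. Per the submitters' processing notes, R 2.9.0, GCRMA and RMA were used, with no order given, and no original step was repeated. The values covered 22277 probe sets on 24 arrays, from 2.34 to 14.5, with 39.9% to 41.5% within 0.05 of the floor of an array, so changes of dim genes are compressed. GEO's annotation of the platform gave 19064 probe sets 1 gene, 1043 several and 2108 none here, and 62 were controls. By gene ID 19052 matched a RefSeq table. A gene was tested where the mean of its probe set reached 2.85, the median over probe sets.

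Linear models were fitted with limma 3.58.1 (lmFit and eBayes, R 4.3.3), which was tested on simulated data, with Benjamini-Hochberg adjustment over 6782 genes. The 12 arrays of each kind of RNA were fitted apart, and all 24 together where the kinds of RNA were compared. Alternatives were other filters, the mean of probe sets, renormalized arrays, the replicate block and each array left out. The members, the other replication genes and the tests were chosen with earlier results of these data known. Genes given array by array are mainly those with the 4 smallest p in each direction of a comparison and those whose call differs between the kinds of RNA. Same-numbered arrays deviated together at r = 0.50, 0.11 and 0.52 for AGO2-bound miR-130a and scramble RNA and at 0.58, 0.16 and 0.44 for miR-203 and scramble. This pairing comes from the data and not from a stated design. Between AGO2-bound and total RNA, same-numbered arrays had r = -0.12, -0.01 and -0.04 for miR-130a. The values were -0.14, -0.03 and 0.12 for miR-203, -0.11, 0.11 and 0.19 for miR-205, and -0.13, 0.05 and 0.08 for scramble. In the main fit the kinds of RNA were compared without pairing. For arrays no depth per sample applies.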

Additional observations from a re-analysis of the deposited data

Results flagged for a closer look

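These results were picked out because the change after a microRNA differed between AGO2-bound and total RNA in a test of that difference (limma, adjusted p under 0.05). After miR-130a, 6 members changed to a lower value in AGO2-bound RNA than in total RNA and 5 to a higher one. RFC4 stood lowest at -2.68 ± 0.31 and MCM10 highest at 2.72 ± 0.30. After miR-203 the counts were 6 lower and 6 higher, with RFC4 at -2.72 ± 0.31 and RRM2 at 1.16 ± 0.41, a call that ended with the mean of its probe sets. After miR-205 they were 4 lower and 10 higher, with RFC4 at -2.54 ± 0.31 and PRIM1 at 3.04 ± 0.37. The 3 tests share the scramble arrays of both kinds of RNA, and RFC4 was high on each of the AGO2-bound scramble arrays. The member counts lie below or near the shares of all genes in the same tests. The only count above its share is 10 of 35 higher after miR-205, where 21.1% of all genes were higher. That count was 7 to 11 with 1 array left out, so it is not read as a trait of the members.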

How the results depend on the processing

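The 339 calls of members in 16 comparisons were recomputed 4847 times under the alternatives. In 4513 the call stood, in 332 it ended and in 2 its direction turned, and 255 calls stood under every alternative run for them. With the mean of all probe sets, RFC5 after miR-205 in AGO2-bound RNA was -0.087 (adjusted p = 0.72) and RRM1 in AGO2-bound against total RNA after miR-130a was -0.27 (adjusted p = 0.098), because their probe sets differ.

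Members lower in total RNA after miR-203 (22) were 14 with no filter and 10 with all 24 arrays in the fit, and 13 to 21 with 1 array left out, when 0 to 1 were higher. In AGO2-bound RNA after miR-203, 9 to 16 were lower and 1 to 3 higher with 1 array left out. Members higher there (1) were 0 with the mean of probe sets, 2 with all 24 arrays in the fit and 2 without replicate 1 in all 4 AGO2-bound groups, an alternative chosen after seeing the data. In AGO2-bound RNA after miR-205, 10 to 21 were lower with 1 array left out and 7 with no filter. With a stricter filter, which tests fewer genes, 0 members were higher in total RNA after miR-205 than after miR-203, and 3 beyond total RNA after miR-203. The cause of the other shifts was not tested.

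With the replicate number as a block, 2 members were higher in AGO2-bound RNA after miR-203, 21 lower, 15 higher after miR-130a and 23 lower after miR-205, where the numbers did not pair all arrays (r = -0.04 for number 2). The block changed no other count by more than 2. Shares of all genes under the block are not given, so these member counts are not set against them.

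With 3 arrays a group, changes of ORC1, CDT1, LIG1, POLA1 and POLE2, with some group means under 3 on the log2 scale, are limited by the floor.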
